A study of Mus musculus with 30 samples.

Results

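The bins described here are 100 nt stretches within genes that were called as carrying N6-methyladenosine (m6A) when wild-type METTL14 was put back into Mettl14 knockout cells, but not when the 5RK arginine mutant was put back. A bin was taken when the same coordinates and strand stood in all 3 KO+WT peak lists, in none of the 3 KO lists, in none of the 3 KO+5RK lists and in at most 1 of the 3 KO+13RK lists. This gave 332 bins in 306 genes, of 62091 distinct bins in 13765 genes over all 15 lists. Of the 6211 bins in all 3 KO+WT lists, 5.35% met the whole rule. The calls in the KO+WT, KO, KO+5RK and KO+13RK lists chose the bins, so those calls are given as a description with no test, and no further weight is put on them.

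The study used mouse embryonic stem cells of the C57BL/6 strain, grown with serum and leukemia inhibitory factor on gelatin. WT cells kept their own Mettl14, KO cells lacked it, and the other 3 lines were the knockout expressing wild-type METTL14 (KO+WT) or the arginine methylation mutants KO+5RK and KO+13RK. Each line had 3 libraries of RNA pulled down with an m6A antibody, each with 1 deposited peak list, and 3 input libraries that were not analysed here. Whether replicates were separate cultures, whether a line was a clone, and which promoter drove the METTL14 constructs are not given in the sources used here, so p-values measure only the spread between libraries. Lists held between 6323 bins (KO replicate 1) and 23143 bins (WT replicate 1), with 14172 to 17162 in KO+WT, 11165 to 13001 in KO+5RK and 9581 to 10964 in KO+13RK. Read depth is unknown, so a bin without a call is not shown to lack m6A. Of 8 embryonic stem cell markers, 4 to 8 had a called bin in a list. Of 6 fibroblast markers 0 to 3 did, with Col1a2 and Col3a1 called in no list. Of 4 primed-state markers 0 to 3 did, with Fgf5 called in no list.

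METTL14 binds RNA as the partner of METTL3, the catalytic subunit of the complex that writes m6A during transcription. The complex prefers an A within a GGAC-like stretch, and m6A in mammals is densest in long exons and around stop codons, where reader proteins act on the decay and translation of the message. The C-terminus of METTL14 is a disordered tail rich in arginine and glycine, and its arginines can be methylated.

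The sequence of 1 of the 332 bins could be read from RefSeq promoter windows of GRCm38.p6, and it is shown for that reason only. It is not typical, since only 1.61% of the bins that could be placed in a gene lay within 500 nt of its start. The bin lies in Ciao2b, which encodes a subunit of the machinery that inserts iron-sulfur clusters into cytosolic and nuclear proteins, at chr8:104641539-104641638 on the minus strand, 140 nt from the gene start. It is written 5′ to 3′ on the strand of the gene, and the capitals mark its only GGAC.
Ciao2b: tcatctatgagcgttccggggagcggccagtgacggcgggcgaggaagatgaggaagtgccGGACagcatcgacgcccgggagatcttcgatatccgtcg
GGAC was searched on the strand of the gene, and 32.0% of 32851 promoter stretches of 100 bases held it there (53.6% on either strand), so its presence is a description and not a mapped site. The Ciao2b bin had enrichment values, the authors' score for each called bin, of 1.13, 0.85 and 0.88 in the KO+WT lists. It was called in WT replicate 1 with 1.05 and in no other WT list. No bin of Ciao2b was called in any KO, KO+5RK or KO+13RK list.

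At the exact bin, absence from KO+5RK was uncommon among rescued bins. Of the 6211 bins in all 3 KO+WT lists, 71.5% stood in no KO list, 7.58% in no KO+5RK list and 16.8% in no KO+13RK list. Of the 4439 bins that also stood in no KO list, 382 (8.61%) stood in no KO+5RK list. The 332 described bins are those of the 382 with at most 1 KO+13RK call: 229 with none and 103 with 1. Just outside the rule, 40 bins had 2 KO+13RK calls and 10 had 3. Just outside on the side of KO+5RK, 547 bins had 1 KO+5RK call and at most 1 KO+13RK call.

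The rule fixes the exact bin and says nothing of the bins beside it. An abutting or overlapping bin on the same strand was called in at least 1 KO+5RK list for 179 of the 332 bins (53.9%). Among all 471 bins of the 3 KO+WT lists that were in no KO+5RK list, the described ones included, 256 (54.4%) had such a neighbour, so the described bins were at the background share. A further 73 (22.0%) had their nearest KO+5RK bin within 1000 nt, and 80 (24.1%) had none that near. Of the same 471 bins, 96 and 119 fell in these classes, so nothing particular to the described bins is read from them. For KO, the bins with an abutting or overlapping call numbered 24 (7.23%). That share was 9.47% among the 2101 bins in all 3 KO+WT lists, no KO list and all 3 KO+5RK lists. Per list, the described bin or a direct neighbour was called for 107, 120 and 96 of the 332 bins in KO+5RK replicates 1 to 3, which is 32.2%, 36.1% and 28.9%. In KO+13RK the shares were 31.6%, 23.8% and 34.3%, in KO 3.92%, 4.22% and 3.61%, and in WT 84.0%, 86.1% and 84.6%. The rule barred the exact bin in KO and KO+5RK and allowed it in 1 KO+13RK list, so these shares of KO, KO+5RK and KO+13RK are a description and their order is not read.

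**Figure D1:**
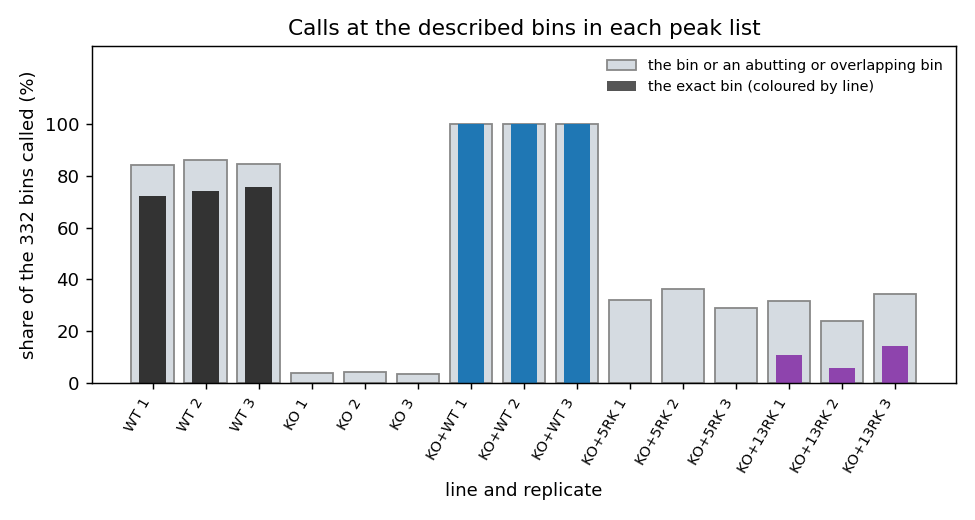
Share of the 332 described bins called in each of the 15 peak lists, in percent, by line and replicate; narrow coloured bars count the exact bin and wide grey bars also count an abutting or overlapping bin. The exact bin is absent from KO and KO+5RK and present in KO+WT by the rule, while 28.9% to 36.1% have the bin or a neighbour called in the KO+5RK lists and 84.0% to 86.1% in the WT lists.

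Most of the genes still had some other called bin in KO+5RK. For 143 of the 306 genes, a bin was called in all 3 KO+5RK lists, for 76 in 2 lists and for 51 in 1 list. Per bin, the gene was called in all 3 KO+5RK lists for 47.6% of the described bins against 81.8% of all bins in all 3 KO+WT lists, and in at least 1 KO+5RK list for 88.6% against 99.1%. These shares follow in part from the rule and have no test. In 36 genes, holding 38 of the bins, no bin at all was called in KO+5RK. The same held in KO+13RK for 37 genes, holding 38 of the bins. Per bin, the gene was called in at least 1 KO+13RK list for 88.6% against 96.9% of all bins in all 3 KO+WT lists. In KO, 99 of the 306 genes had no called bin and 71 had one in all 3 lists. Per bin, the gene was called in all 3 KO lists for 25.3% of the described bins against 44.3% of all bins in all 3 KO+WT lists. For at least 1 KO list the shares were 68.1% and 80.6%. The bins of the second share include ones with a KO call, which the rule barred. The number of called bins in the 306 genes was 2525 ± 56.2 (SD, n = 3 lists) for WT, 1825 ± 80.6 for KO+WT, 1200.0 ± 250.2 for KO+5RK, 906 ± 106 for KO+13RK and 602 ± 75.6 for KO. These counts move with the lengths of the lists: they were 10.9% to 11.4% of a WT list, 11.1% to 12.9% of a KO+WT list, 8.61% to 11.2% of a KO+5RK list, 8.12% to 10.4% of a KO+13RK list and 7.54% to 8.14% of a KO list. The part of list length in them was not tested.

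The WT lists played no role in choosing the bins and show how often the same bin was called with the cells' own METTL14. The bins were called in 240, 246 and 251 of 332 cases in WT replicates 1 to 3, or 74.0 ± 1.66% (SD, n = 3 lists). Of the 332, 179 (53.9%) stood in all 3 WT lists, against 81.6% of all bins in all 3 KO+WT lists and 83.6% of those that were also in no KO list. No WT list held 33 of them (9.94%), against 2.37% of all those bins. The comparison bins were 2101 bins in all 3 KO+WT lists, no KO list and all 3 KO+5RK lists. The rule barred the described bins from those KO+5RK lists, so the comparison bins were chosen for more calls. The part of that choice in the comparisons with them, here and below, was not tested. In WT the comparison bins were called in 97.1 ± 0.370% of cases. The difference was -23.1 ± 1.95 percentage points and was negative in 3 of 3 WT lists, with an exact sign-flip permutation p = 0.25 (two-sided), the smallest that 3 lists allow. It was -36.4 with every list shortened to the same length by p-value and -38.4, -31.1 and -34.2 without KO+WT replicates 1, 2 and 3. It was smaller, at -17.5, with a q-value of at most 0.005. Without KO+5RK replicates 1, 2 and 3 it was -16.4, -17.4 and -19.8.

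The share called in WT was higher the more KO+5RK lists held the bin. Among the 4439 rescued bins without a KO call, WT shares were 74.5 ± 1.98% for bins in 0 KO+5RK lists, 87.5 ± 1.13% for 1, 91.6 ± 0.0975% for 2 and 97.1 ± 0.370% for 3 (SD, n = 3 WT lists). The 4 classes held 382, 772, 1184 and 2101 bins, and no WT list of one class overlapped those of the next.

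**Figure D2:**
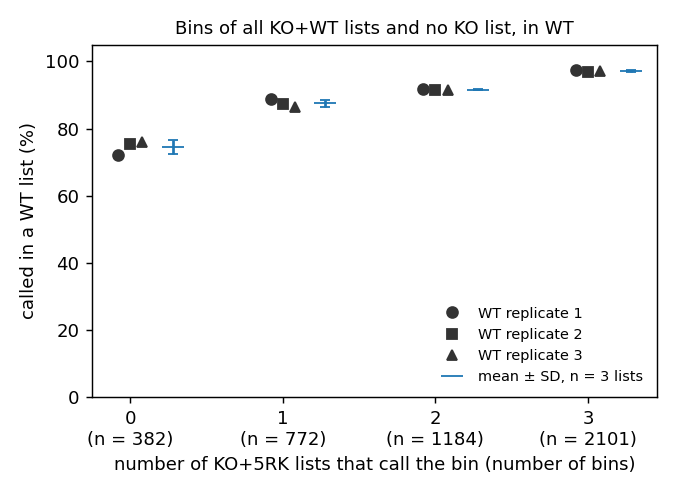
Share of bins called in each WT list, in percent, against the number of KO+5RK lists that call the same bin, for the 4439 bins in all 3 KO+WT lists and no KO list; symbols are the 3 WT replicates and blue bars the mean ± SD. The share goes from 74.5 ± 1.98% for bins in no KO+5RK list to 97.1 ± 0.370% for bins in all 3.

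The described bins had lower median ranks among the calls of a list than the comparison bins, and in KO+WT a wider spread. Their strength was ranked by the percentile of the enrichment value among all bins of the same list, since its scale is not known. The median over bins of the mean KO+WT percentile was 42.8, with quartiles of 19.9 and 67.0 and a range of 1.39 to 98.8. For the comparison bins the median was 51.3, with quartiles of 36.1 and 64.9, so the upper quartile of the described bins was the higher one. The median was 44.4 for all bins in all 3 KO+WT lists. The highest of the 3 deposited KO+WT q-values had a median of 0.0249 over the described bins, against 0.000820 over the comparison bins and 0.00530 over all bins of the 3 lists, where calling ended at 0.05. In WT lists, the median percentile of the described bins that were called was 45.4 ± 1.03 (SD, n = 3 lists) against 60.7 ± 0.399 for comparison bins. The difference of -15.3 ± 1.43 was negative in 3 of 3 WT lists, with an exact sign-flip permutation p = 0.25 (two-sided), the smallest possible. It was -7.33 with lists of equal length and -7.95 with neighbouring bins counted as called. For bins with a WT call, the median over bins of the mean WT percentile was 46.2 for the described bins. It was 59.8 for the comparison bins and 51.3 for all bins in all 3 KO+WT lists. The part of call strength in the absence from KO+5RK was not tested.

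**Figure D3:**
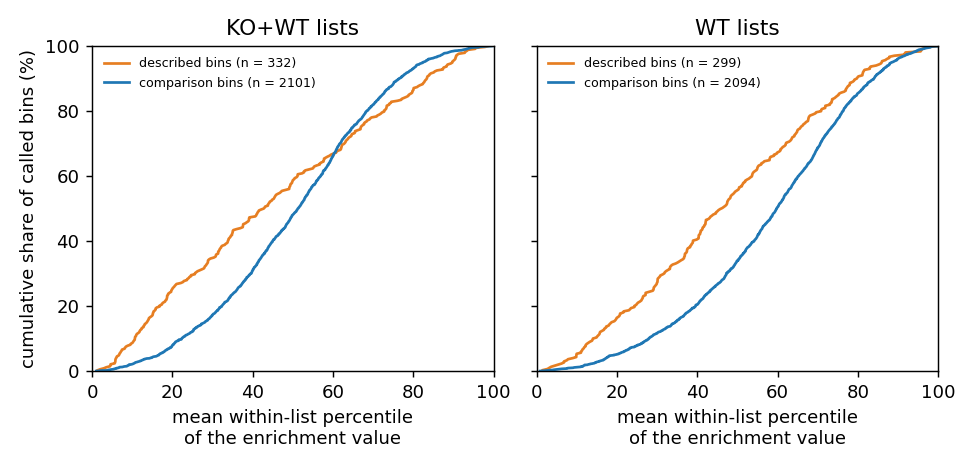
Cumulative share of bins, in percent, against the mean within-list percentile of the enrichment value, in the KO+WT lists (left) and, for bins with a WT call, in the WT lists (right); orange is the described bins and blue the comparison bins. In WT the orange line lies to the left, with list medians of 45.4 ± 1.03 against 60.7 ± 0.399, and in KO+WT the lines cross, with medians of 42.8 and 51.3.

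The described bins also stood alone more often than the comparison bins did. In the KO+WT lists, 50.2 ± 3.09% of the described bins had an abutting or overlapping called bin, against 74.6 ± 1.47% of comparison bins. In the WT lists the shares were 67.5 ± 2.98% and 84.3 ± 0.508%, a difference of -16.9 ± 2.67 percentage points in the same direction in 3 of 3 lists (exact sign-flip permutation p = 0.25, two-sided, the smallest possible). Where a neighbour was called in WT, it was stronger than the described bin in 54.3 ± 0.476% of cases and stronger than the comparison bin in 46.0 ± 1.17%. That difference of 8.29 ± 1.54 percentage points had the same smallest exact permutation p of 0.25. Counting abutting bins only, 66.0% of the described bins had one called in at least 1 KO+WT list. This share was 86.1% for the comparison bins and 76.4% for all bins in all 3 KO+WT lists, so the comparison bins stood above that background.

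Calls were also read in lists that had not chosen the bins, by leaving out each replicate number in turn. Bins were then chosen from the other 2 replicates of each line (in both KO+WT lists and in no KO, KO+5RK or KO+13RK list), giving 1007, 781 and 958 bins. In the left-out KO+WT list, 42.3%, 48.0% and 38.2% of them were called, a mean of 42.8 ± 4.93% (SD, n = 3). In the left-out KO+5RK list, 28.9%, 25.7% and 18.3% were called, a mean of 24.3 ± 5.46%. The groups did not overlap. The difference of 18.5 percentage points had an exact permutation p = 0.1 (two-sided), the smallest that 3 against 3 lists allow. All lines were scored on the same bins when a replicate number was left out. With that number as a block, the adjusted exact permutation p was 0.25, the smallest possible. The choice used other lists of the same lines, requiring calls in KO+WT and barring them in KO+5RK, which favours this direction. Its part in the difference was not tested, so no weight is put on these p-values. Over all bins of the other 2 KO+WT lists the groups did not overlap either. There KO+WT had 75.1%, 80.3% and 72.6% and KO+5RK 68.7%, 67.5% and 56.5%.

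In the left-out lists KO+13RK was lower than KO+5RK, and KO was lowest. The left-out KO+13RK lists called 12.4%, 10.8% and 14.7%, a mean of 12.6 ± 1.99%, which was 30.2 percentage points below KO+WT and 11.7 below KO+5RK. The left-out KO lists called 1.99%, 3.84% and 3.97%, a mean of 3.26 ± 1.11%, which was 21.0 percentage points below KO+5RK. None of these pairs of lines overlapped, and each had the smallest exact permutation p of 0.1 (two-sided). With the replicate number as a block, each had an adjusted exact permutation p of 0.25. Over all bins of the other 2 KO+WT lists these pairs did not overlap either. There KO+13RK had 52.8%, 53.5% and 55.9% and KO 18.1%, 21.9% and 22.2%. The difference between KO+13RK and KO+5RK was smaller under other settings: -5.40 percentage points with lists of equal length (adjusted exact permutation p = 0.4) and -6.34 with only bins of at least the median enrichment value kept (adjusted exact permutation p = 0.2). WT lists called 62.9%, 67.2% and 64.2% of the bins. The 6 WT and KO+WT lists had a mean of 53.8% against 18.5% in the 6 mutant lists, a difference of 35.3 percentage points (exact permutation p = 0.00216, adjusted p = 0.0108 over the 5 comparisons by Benjamini-Hochberg, the smallest possible). All lines of a round are scored on the same chosen bins, and with the round, that is the replicate number, as a block the adjusted exact permutation p was 0.25, the smallest that 3 rounds allow, which ends the call. Without any one replicate number it was 0.143. WT and KO+WT are different lines, and the rounds share lists. The choice also barred calls in the other lists of both mutants, which favours a lower share in them than in KO+WT. No weight is therefore put on the exact permutation p of 0.00216 or on that of KO+WT against KO+13RK.

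The same order of lines stood in all bins of the other 2 KO+WT lists, chosen with no rule on the mutants. Of those, 84.5 ± 1.19% were called by the left-out WT list, 76.0 ± 3.89% by KO+WT, 64.2 ± 6.73% by KO+5RK, 54.1 ± 1.63% by KO+13RK and 20.7 ± 2.32% by KO. Every line's share was thus lower at the bins chosen by the rule. At the same time, 24.3% on average of the bins chosen as missing from 2 KO+5RK lists were called in the KO+5RK list left out.

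**Figure D4:**
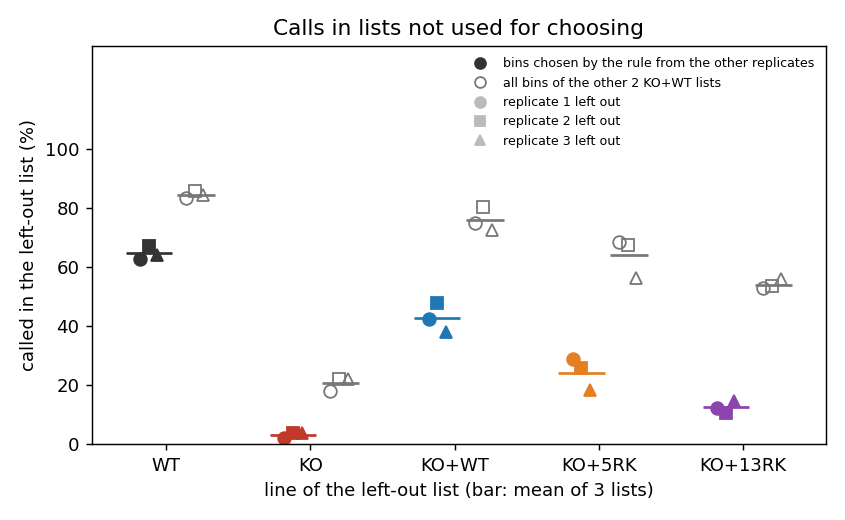
Share of bins called in the left-out list, in percent, by line of that list; filled symbols are bins chosen by the rule from the other 2 replicates, open symbols are all bins of the other 2 KO+WT lists, and bars are means of 3 rounds. The chosen bins go from 42.8 ± 4.93% in KO+WT to 24.3 ± 5.46% in KO+5RK and 12.6 ± 1.99% in KO+13RK, with KO at 3.26 ± 1.11%.

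The bins were spread over 20 chromosomes, 13 of them on X, and 283 of the 306 genes held 1 bin, 20 held 2, 2 held 3 and 1 held 4. Protein-coding genes held 311 (93.7%) and long noncoding RNAs 8. Within the RefSeq gene spans of GRCm38, which include introns, 310 bins could be placed. Of these, 91 (29.4%) lay within 2000 nt of the gene end, against 40.3% of comparison bins and 33.0% of all bins in all 3 KO+WT lists. The median distance to the gene end was 4450 nt, against 2650 nt in the comparison bins. Only 5 (1.61%) lay within 500 nt of the gene start, against 0.493% and 4.39%. The nearest were those of Gm13238 at 50 nt, Ciao2b at 140 nt and Gm15471 at 350 nt.

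Kat6b, a histone acetyltransferase needed in development, held the most bins, with 4. They lie on the plus strand at chr14:21516735-21516834, chr14:21516835-21516934, chr14:21517235-21517334 and chr14:21669335-21669434. The first 3 stand 17568, 17668 and 18068 nt from the gene start and were called in all 3 WT lists. The bin at 17568 nt had enrichment values of 0.71, 0.95 and 0.74 in KO+WT replicates 1 to 3 and of 0.75, 1.29 and 0.97 in WT. Around these 3 bins, 6 bins were called in each KO+WT list, 7 in each WT list, 1 in KO+5RK replicate 1 and 2 in KO+5RK replicate 2. KO+5RK replicate 3, KO and KO+13RK had none there. Over the whole gene, replicates 1 to 3 called 12, 15 and 16 bins in KO, 13, 8 and 2 in KO+5RK and 2, 6 and 2 in KO+13RK. They called 26, 30 and 23 in KO+WT and 26, 31 and 28 in WT. The bin at 17968 nt, with 1.30, 1.27 and 1.28, was the strongest of the cluster in KO+WT replicates 1 and 3, and it was called in KO+5RK replicates 1 and 2 with 0.86 and 1.00. The bin at 18168 nt was the strongest in KO+WT replicate 2, with 1.32, and it was called in KO+5RK replicate 2 with 0.88.

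**Figure D5:**
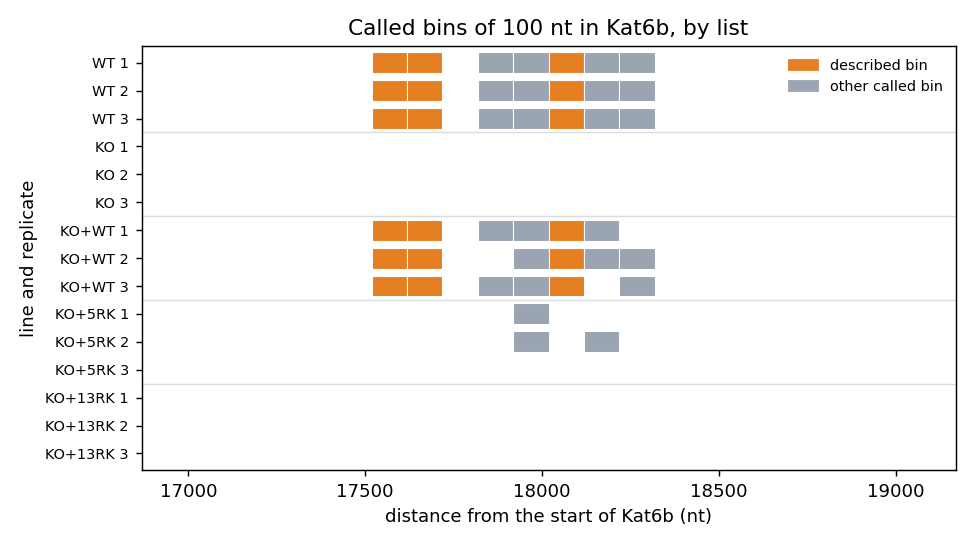
Called 100 nt bins of Kat6b by distance from the gene start in nt, one row per peak list; orange marks described bins and grey other called bins. Only the stretch around the first 3 described bins is shown. There each KO+WT list has 6 bins and each WT list 7, while KO+5RK has 1 and 2 in replicates 1 and 2. KO+5RK replicate 3, KO and KO+13RK have none there, but all of these lists call bins elsewhere in the gene.

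Genes were also read through 12 lists of pathways and cell types. Over all 3295 genes with a bin in all 3 KO+WT lists, 306 (9.29%) held a described bin. The counts were 2 of 12 genes for crosslink repair, 1 of 20 for homologous recombination and checkpoint, 2 of 14 for excision and mismatch repair, and 8 of 47 for chromatin modifiers. They were 6 of 26 for pluripotency, 5 of 28 for TGF-beta, FGF and Wnt signalling, 1 of 18 for cell cycle and p53, and 1 of 30 for ubiquitin enzymes. Of 6 genes of arginine methyltransferases and their partners, 1 held a bin. None of 9 genes of the m6A machinery and none of 2 fibroblast and matrix genes did, and no gene of the primed-state list had a bin in all 3 KO+WT lists. The number of bins per gene was not allowed for, and nothing is called particular to a list from these counts.

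Among DNA repair genes, Chek1, the kinase that halts the cell cycle when replication stalls, had its bin at chr9:36723883-36723982. Its enrichment values were 1.03, 1.02 and 0.84 in KO+WT, and 0.86 and 1.11 in WT replicates 1 and 2, with no call in WT replicate 3. No bin anywhere in Chek1 was called in KO+5RK or KO+13RK, while 2 KO lists called another bin of the gene. Fanci, which with its partner Fancd2 marks crosslinked DNA for repair, had its bin 187 nt from the gene end at chr7:79450030-79450129. That bin had 1.11, 1.04 and 1.02 in KO+WT and 1.34, 1.59 and 1.36 in WT, with no neighbour called in KO, KO+5RK or KO+13RK. One KO+5RK list still called another bin of Fanci.

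Ercc6, a remodeller of transcription-coupled repair, had values of 1.95, 1.88 and 1.40 in KO+WT but was called at this bin in 1 WT list only, with 1.30. No KO+5RK list called any bin of Ercc6. Ercc2, a helicase of the excision repair and transcription factor TFIIH, had 1.51, 1.01 and 1.03 in KO+WT and 0.99 in WT replicate 2 alone. A direct neighbour of the Ercc2 bin was called in 2 KO+5RK lists. Dclre1b, a nuclease that protects telomeres and acts in crosslink repair, had 1.32, 1.56 and 1.78 in KO+WT and was called in no WT list. Its bin overlaps one of Gm15471 on the opposite strand, with 1.33, 1.63 and 2.11, so the assignment of the signal to a strand is uncertain.

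The 8 chromatin genes held 13 bins, of which 8 had no called neighbour in KO+5RK. Hdac4, a histone deacetylase, had 1.90, 2.26 and 1.66 in KO+WT and 1.49, 2.27 and 1.91 in WT, with no neighbour called in KO+5RK. Chd7, a nucleosome remodeller, had 1.02, 1.10 and 1.40 in KO+WT and 1.20, 1.24 and 0.92 in WT, also with no KO+5RK neighbour. Both genes kept other bins in all 3 KO+5RK lists.

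Chd2, another remodeller, held 2 abutting bins, called in KO+WT with 1.69, 1.26 and 1.31 and with 1.07, 1.70 and 1.43. Arid2, a subunit of a remodelling complex, and Nsd1, a histone methyltransferase, were called in all 3 WT lists and had direct neighbours called in 1 and 3 KO+5RK lists. The histone demethylase genes Kdm5c and Kdm6a, both on X, held 1 and 2 bins.

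Of the 7 bins in pluripotency genes, 2 had no called neighbour in KO+5RK. Lin28b, which blocks maturation of let-7 microRNAs, had 1.89, 1.80 and 1.47 in KO+WT and 1.54 and 1.39 in WT replicates 2 and 3. No bin of Lin28b was called in KO or KO+5RK, and KO+13RK replicate 1 called this one. Sall1, a zinc finger transcription factor, was the other, with 0.90, 0.96 and 0.79 in KO+WT and 0.92 and 1.55 in WT replicates 1 and 2.

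Nr5a2, a nuclear receptor that can activate Pou5f1, had 2.46, 2.28 and 2.39 in KO+WT, and its exact bin was called in WT replicate 2 alone, with 2.70. A direct neighbour of it was called in all 3 WT and all 3 KO+5RK lists. Esrrb, a nuclear receptor of the naive state, had 0.79, 0.73 and 0.74 in KO+WT and 0.75, 1.04 and 0.97 in WT, and 2 KO+5RK lists called a neighbour. Tfcp2l1, another naive-state factor, had 0.83, 0.78 and 0.92 in KO+WT and 1.13, 1.14 and 1.18 in WT, again with a neighbour in 2 KO+5RK lists. The Myc bin, 320 nt from the gene end, had 1.32, 1.25 and 1.48 in KO+WT, no WT call at the exact bin, and 2.34 in KO+13RK replicate 3.

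In signalling, Smad4, the shared transducer of TGF-beta and BMP signals, had 0.91, 0.97 and 0.94 in KO+WT and 1.55, 1.46 and 1.17 in WT. Smad7, an inhibitor of the same pathway, had 0.92, 0.72 and 1.07 in KO+WT and 0.91, 1.21 and 0.99 in WT. Neither had a neighbour called in KO+5RK or KO+13RK, and both genes had other bins in all 3 lists of each mutant.

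Znrf3, a ligase that removes Wnt receptors, had 1.62, 3.57 and 2.24 in KO+WT and a neighbour in 1 KO+5RK list. Sos1, an activator of RAS, had 1.17, 1.07 and 1.72, with a neighbour in all 3 KO+5RK lists. The bins listed under Fgfr2 lie outside its RefSeq span, so that assignment is uncertain. Cdk4, a cyclin-dependent kinase, had 0.89, 0.90 and 0.99 in KO+WT and 1.41, 1.62 and 1.62 in WT, at a bin that also lies outside its RefSeq span.

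Tdrd3, a reader of methylated arginines, had 2.65, 2.81 and 1.64 in KO+WT, and 1.71, 2.36 and 2.07 in WT. It was also called in KO+13RK replicate 3 with 2.89, and 1 KO+5RK list called a neighbour. Birc6, a ubiquitin enzyme that inhibits apoptosis, had 0.95, 1.07 and 1.02 in KO+WT, with a neighbour in 2 KO+5RK lists.

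Among the bins ranked highest in KO+WT, several lay in genes with few calls in other lines. Myo16, an unconventional myosin, had 2.62, 3.19 and 3.11 at chr8:10629112-10629211, with 2.72 in WT replicate 1, 2.49 in KO+13RK replicate 1 and no bin of the gene in KO or KO+5RK. Rbm44, an RNA-binding protein of germ cells, had 2.87, 2.35 and 2.97 in KO+WT, 1.60 and 2.43 in WT replicates 1 and 3, and 2.59 in KO+13RK replicate 3. No bin of Rbm44 was called in KO or KO+5RK.

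Other highly ranked bins belonged to genes that KO+5RK still called. Ccar1, a transcriptional coactivator, had 2.30, 3.29 and 2.79 in KO+WT and 2.72, 1.80 and 2.08 in WT, and a direct neighbour was called in 2 KO+5RK lists and in all 3 KO lists. Pde7a, a cyclic AMP phosphodiesterase, had 1.96, 2.81 and 3.15 in KO+WT and 1.26, 1.61 and 2.30 in WT. Erbin, a scaffold that binds the receptor ERBB2, had 2.75, 1.92 and 2.76 in KO+WT and 3.32, 1.44 and 2.11 in WT. The bin of highest rank is listed under Gm20388, a gene model with no match in the RefSeq table used, so its gene is uncertain.

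Gramd1b, a sterol transporter, had 2.15, 3.31 and 2.16 in KO+WT, with a neighbour in 2 KO+5RK lists. The bin of 4933427D14Rik had 3.00, 1.77 and 2.95 in KO+WT and a neighbour in 1 KO+5RK list. That of B230344G16Rik had 2.35, 2.64 and 2.52 in KO+WT, and its gene was called nowhere in KO or KO+5RK.

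Cobl, an actin nucleator, held 2 bins, with 0.86, 0.89 and 0.99 and with 0.90, 0.97 and 0.88 in KO+WT. Neither had a neighbour called in KO+5RK, and 2 KO+5RK lists called another bin of the gene. Rbm4, an RNA-binding protein that acts in splicing, held a bin with 1.21, 1.03 and 1.25 in KO+WT. It overlaps one of Gm21992 on the same strand with 1.35, 1.18 and 1.42, so the gene behind this signal is uncertain.

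The bins of highest rank in WT were in Aars, Susd4, Elk4 and Wdr7. Aars, which charges alanine onto its transfer RNA, had 2.09, 3.13 and 1.96 in KO+WT and 2.38, 3.02 and 2.25 in WT, with no neighbour called in either mutant. Susd4, a complement inhibitor, had 3.23, 1.57 and 3.09 in KO+WT and 1.94, 2.83 and 2.23 in WT. Both of these lie in genes that KO+5RK still called. Elk4, an ETS transcription factor, held 2 bins, at 3.26, 1.87 and 2.19 and at 1.49, 1.19 and 1.47 in KO+WT, both called in all 3 WT lists. Wdr7 had 1.59, 1.40 and 1.45 in KO+WT and 1.96, 2.48 and 2.18 in WT, and no bin of the gene was called in KO, KO+5RK or KO+13RK. Erc1 held 3 bins, all called in all 3 WT lists.

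The 33 bins with no WT call ranked high in KO+WT, with a median percentile of 67.1. Ggps1, which makes geranylgeranyl diphosphate for protein prenylation, had 2.63, 2.40 and 2.56, and Fam217b had 2.38, 2.62 and 2.62. Nudt6, a hydrolase gene that overlaps Fgf2 in antisense, had 2.60, 2.28 and 2.25 in KO+WT. It was called in no WT, KO, KO+5RK or KO+13RK list at any bin, so KO+WT was its only line.

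Some of these highly ranked bins are on both strands at the same place. Lix1l, on the plus strand, had 2.63, 1.95 and 2.60 in KO+WT, and 6330549D23Rik, on the minus strand and 10 nt further along, had 2.57, 2.01 and 2.60. Neither bin was called in WT. Values this near on opposite strands leave the strand of the signal uncertain, and the sources used here do not say how strand was used in counting. In all, 12 of the 332 bins overlap another, and joining abutting and overlapping bins on a strand left 325 stretches.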

How the data were processed

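RNA from 5 mouse embryonic stem cell lines was fragmented, pulled down with an m6A antibody and sequenced from stranded libraries, per the labels' protocols. The authors deposited 15 peak lists, 1 for each pulled-down library, placed by their names. Each row is a 100 nt bin with a gene, an enrichment score, a p-value and a q-value, all the authors' own, and every deposited q-value was under 0.05. Build GRCm38 and the tools kallisto 0.43.0 and STAR 2.5.3a come from the submitters' processing notes, which give no roles, and the peak caller and the scale of the score are not given in the sources used here. Scores ran from 0.31 to 5.82 and were ranked only within a list.

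Bins were matched by exact coordinates and strand, and 195 bins listed more than once in a list were counted once. Symbols matched 13730 of 13765 genes, and distances used RefSeq spans. Means of lists were compared by exact permutation tests with Benjamini-Hochberg adjustment (Python 3.11.15, numpy 2.4.6, pandas 2.3.3, scipy 1.17.1), tested on simulated data. Named genes were list genes with a bin (up to 4 a list), the 15 bins of highest KO+WT percentile, up to 5 genes with the most bins, the 5 highest bins called in all 3 WT lists and the 5 highest in none, and up to 3 bins nearest a gene start. Chd7, Kdm5c, Kdm6a, Esrrb, Tfcp2l1 and Smad7 are list genes beyond 4 a list and were chosen after their values were seen. The bins, the 12 gene lists and the tests were chosen with earlier results of these data known. Alternatives tried were a stricter q-value, an enrichment minimum, equal list lengths, merged regions, a replicate block, leaving out replicates and, chosen after seeing the data, counting neighbouring bins. No genome sequence was used here, so motifs in the other bins were not analysed.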

Additional observations from a re-analysis of the deposited data

How the results depend on the processing

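The number of bins that meet the rule depends on the settings. With a q-value of at most 0.005 it was 210, of which 32 were among the 332; with an enrichment minimum at the median of all bins, 168 (96 shared); with equal list lengths, 98 (29 shared). Counting neighbouring bins as called, an alternative chosen after seeing the data, left 146. Leaving out 1 replicate of a line gave 332 to 906 bins: 853, 717 and 906 without KO+WT replicates 1, 2 and 3, and 582 and 514 without KO+5RK replicates 1 and 2. Merged regions (314) and no KO+13RK call (229) stayed within 1.5 times.

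The WT differences kept their direction under all alternatives run but not their size: the share difference ran from -38.4 (without KO+WT replicate 1) to -16.4 (without KO+5RK replicate 1), and the percentile difference from -19.0 (no KO+13RK call) to -7.33 (equal list lengths). The held-out difference between wild-type METTL14 and the mutants was 33.3 to 37.0 percentage points without a replicate number, with an adjusted exact p of 0.143. With the replicate number as a block it was 35.3, with an adjusted exact permutation p of 0.25. The labels do not say whether a replicate number marks a batch. The 30 correlations of same-numbered lists lay between -0.0256 and 0.0183, none over 0.1, and they cannot show that it marks none. In the held-out comparison the number also fixes the bins that every line is scored on. Read depth is unknown, which limits every statement on a missing call.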
